A study of Sus scrofa with 79 samples.

Results

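Genes of the glucocorticoid and heat shock response were followed in whole blood, jejunum and ileum of pigs after an early-life antibiotic and stressful handling. The group comprised 7 genes, chosen because handling stress acts through cortisol and because heat shock proteins respond to cell stress and hold the cortisol receptor in shape. Members were found through the RefSeq gene names of the array's probes. Of the 7 genes, 5 had a probe, namely NR3C1 with 3, HSD11B1 with 6, HSD11B2 with 1, HSPB1 with 2 and HSP90AA1 with 6, which is 18 of 43603 probes. No probe was matched to HSP90AB1 or HSPD1, and they were not analysed here. The array gave values for 36787 genes or unnamed transcripts in all. A symbol was available for only 12.52% of its probes.

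All piglets were Sus scrofa, and each array carried pooled RNA from 4 piglets treated alike, with 16 animals and 4 pools per treatment and day. The controls, T1, had no intervention other than the day 8 bleeding. In T2 an antibiotic, tulathromycin, was injected once below the neck skin on day 4, as a 0.1 ml volume (2.5 mg/kg). T3 combined that injection with the farm's routine of docking, clipping and weighing. The difference between T3 and T2 is therefore that of the handling, and the difference between T3 and T1 is that of antibiotic and handling together. Blood was taken at day 8, and jejunum and ileum at days 8, 55 and 176, which gave 12 blood and 67 intestinal arrays with 3 or 4 pools per group. Since whole tissue was measured, fewer cells of a type and less RNA per cell cannot be told apart.

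Cortisol acts in cells through the glucocorticoid receptor, encoded by NR3C1, which enters the nucleus once bound and switches genes on or off. How much active hormone reaches it is set locally by a pair of enzymes. HSD11B1 regenerates active cortisol from inactive cortisone, whereas HSD11B2 inactivates cortisol and is known from epithelia that respond to aldosterone, the gut included. HSP90AA1 encodes the inducible cytosolic form of HSP90, the chaperone that keeps the unbound receptor able to take up hormone. HSPB1 encodes a small heat shock protein that holds unfolding proteins and associates with the actin skeleton.

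The arrays differed in how much they could measure. The share of spots well above background was 34.79 to 44.09% on blood arrays and 42.38 to 75.16% on intestinal arrays. All probes of NR3C1, HSPB1 and HSP90AA1 were well above background on all 79 arrays. The HSD11B2 probe was well above background on all 34 jejunum and 33 ileum arrays but on only 1 of 12 blood arrays, and 1 of the HSD11B1 probes was so on 0 of 12 blood arrays. None was saturated. The labelled tissues were borne out by their markers at day 8, since the summed log2 level of 8 epithelial markers was 7.42 to 9.37 in blood, 18.46 to 18.97 in ileum and 18.78 to 19.10 in jejunum. The 11 slides each held arrays of few groups, so that 7 of the 21 treatment comparisons lay within a slide and 14 between slides. The 5 arrays with the lowest median correlation with the other arrays of their tissue and day were jejunum T2 pool 8 (0.801), T1 pool 9 (0.937) and T3 pool 4 (0.940) of day 176, and ileum T1 pool 11 (0.916) and jejunum T2 pool 8 (0.941) of day 8, and these are here said to stand apart.

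None of the 5 genes passed the test for handling, in any tissue or at any day. For T3 vs T2, 0 of 35 tests were called in limma (adjusted p below 0.05 after Benjamini-Hochberg and a fold change above 1.5), and 0 of 35 had an unadjusted p below 0.05. Of all genes tested, 0% were called in blood, 0, 0.860 and 1.16% in jejunum at days 8, 55 and 176, and 0.0283, 8.26 and 0% in ileum. The log2 differences of the members lay between -0.39 and 0.61, and their 95% intervals reached from -1.22 to 1.40. The lowest adjusted p was 0.289, for HSP90AA1 in jejunum of day 176.

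HSP90AA1, the receptor's chaperone, was nominally higher in T3 than in T2 in 7 of 7 tissues and days, by 0.0060 to 0.47 on the log2 scale. The largest of these differences was in jejunum of day 176, where T3 pools had log2 intensities of 14.47, 14.68, 14.30 and 14.86 and T2 pools of 14.25, 14.21 and 13.86. The groups did not overlap there, and 6 of 6 probes were higher in T3, by 0.07 to 1.41. At the other sites the probes were split. Of 6 probes, 3 were higher in T3 in blood and in ileum of day 176. In jejunum of day 8 and ileum of days 8 and 55, 4 were higher, and in jejunum of day 55, 5 were. The difference of 0.47 (SE 0.23) in jejunum of day 176 did not pass the test, and the T3 and T2 pools lay on different slides there. The lowest T2 pool, pool 8, and the highest T3 pool, pool 4, are both arrays that stood apart. Without T2 pool 8 the difference was 0.35 (adjusted p = 0.77 in limma), and without T3 pool 4 it was 0.38 (adjusted p = 0.40). T2 pool 8 also had a summed log2 level of 12.70 for 7 smooth muscle markers, against 14.24 to 14.31 in the other T2 pools. It lay outside those pools in other marker lists too. Epithelial markers were lower (18.92 against 19.34 to 19.52), as were myeloid markers (15.75 against 16.81 to 17.11), and T cell markers were higher (13.1 against 12.32 to 12.46). The part of these in the difference was not tested. HSD11B2 in ileum of day 176 also lay higher in each T3 pool than in each T2 pool, with a difference of 0.61 (SE 0.38, adjusted p = 1.00). NR3C1 in ileum of day 55 was the remaining case without overlap between T3 and T2, with 10.33, 10.54, 10.51 and 10.53 against 10.28, 10.22 and 10.24, a difference of 0.23 (SE 0.15, adjusted p = 0.46). Over the 105 treatment tests of members, 9 cases lay without overlap. How many of all genes did so was not counted, so a lack of overlap is given only as a description of the pools.

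Between T3 and T1, 1 member was called at 1 site, HSD11B2 in ileum of day 55. For T3 vs T1, 1 of 35 tests was called and 9 had an unadjusted p below 0.05. Among all genes, 0.00347% were called in blood, 0, 12.2 and 0% in jejunum at days 8, 55 and 176, and 1.07, 14.8 and 0.00354% in ileum. The share in ileum of day 55 was thus high for all genes, and 1 of 5 members is near it. The log2 intensity of HSD11B2 was 11.07, 10.26, 10.81 and 10.47 in the T3 pools, 10.55, 10.16 and 9.96 in the T2 pools and 9.39, 9.66, 9.48 and 9.76 in the T1 pools. All T3 and all T2 pools lay above all T1 pools, while T3 and T2 overlapped.

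The difference in HSD11B2 between T3 and T1 was 1.08 (SE 0.32, 95% interval 0.42 to 1.74), a 2.12-fold higher level in T3 (adjusted p = 0.025 in limma). T3 pools of ileum day 55 lay on a slide of their own, with 42.38 to 51.98% of spots well above background against 62.63 to 73.14% for T1, so that slide and group cannot be told apart. T2 vs T1, which shared a slide, differed by 0.65 (SE 0.34, adjusted p = 0.62). On the scale of the day 55 fit, the summed log2 level of 8 epithelial markers was 18.65 to 18.88 in T3 and 18.28 to 18.96 in T1, and its part in the result was not tested. The call was lost without T3 pool 1 (0.94, adjusted p = 0.076), T3 pool 3 (1.03, 0.063), T1 pool 9 (1.02, 0.060) or T1 pool 11 (1.05, 0.056).

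In jejunum of day 55 HSD11B2 differed in the same direction without passing the test, by 0.64 (SE 0.32, adjusted p = 0.20) for T3 vs T1 and by 0.76 (SE 0.34, adjusted p = 0.29) for T2 vs T1. The difference between ileum and jejunum in the T3 vs T1 effect was 0.44 (SE 0.45, adjusted p = 0.61). Over the intestine, HSD11B2 was nominally higher in T3 than in T1 in 6 of 6 tissues and days, by 0.20 to 1.08.

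**Figure D1:**
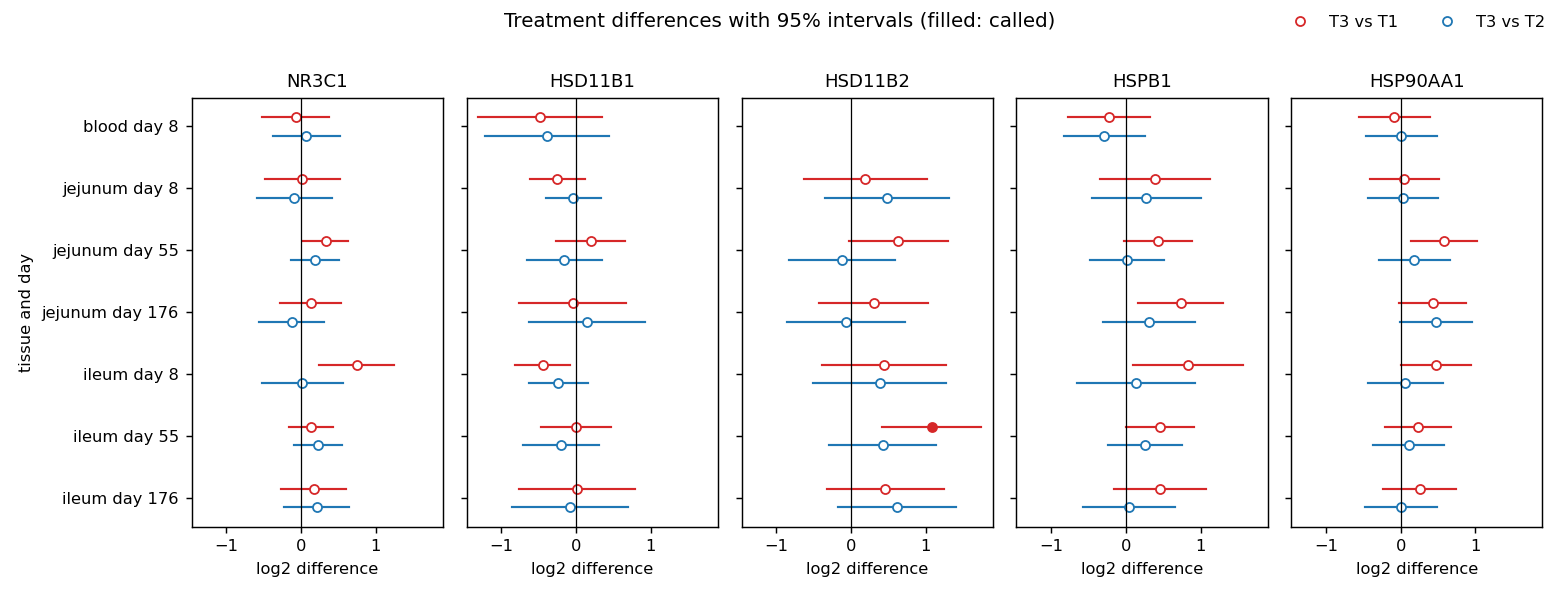
Log2 differences of T3 vs T1 (red) and T3 vs T2 (blue) for the 5 genes in each tissue and day, with points at the estimate, bars for the 95% interval and filled points where the gene was called. The filled point of HSD11B2 in ileum of day 55 is the single call, and HSD11B2 in blood, near background, is not drawn.

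The antibiotic alone called no member. For T2 vs T1, 0 of 35 tests were called in limma and 2 had an unadjusted p below 0.05. The shares of all genes called were 0.00694% in blood, 0.0212, 3.32 and 1.59% in jejunum at days 8, 55 and 176, and 0.418, 0.0800 and 0.0106% in ileum. The members' differences lay between -0.29 and 0.76. HSPB1 was nominally higher in T2 than in T1 in 7 of 7 tissues and days, by 0.06 to 0.70.

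NR3C1, the receptor, came closest to a call at day 8 in ileum. Its log2 intensity was 10.16, 10.39, 10.11 and 10.38 in T3 pools, 10.33, 10.16 and 10.24 in T2 pools, and 9.87, 9.81, 8.40 and 10.00 in T1 pools. All T3 and T2 pools lay above all T1 pools, and T1 pool 11 lay far below the other T1 pools. The difference was 0.74 (SE 0.24, adjusted p = 0.090) for T3 vs T1 and 0.72 (SE 0.26, adjusted p = 0.16) for T2 vs T1, which shared a slide. HSPB1 had a difference of 0.83 (SE 0.35, adjusted p = 0.16) for T3 vs T1 there, with T3 pools at 13.78 to 14.14 and T1 pools at 13.55, 13.03, 11.69 and 14.30. HSD11B1, in contrast, was nominally lower in T3, with a difference of -0.45 (SE 0.18, adjusted p = 0.14), and HSP90AA1 had one of 0.48 (SE 0.22, adjusted p = 0.19). Without T1 pool 12, the highest T1 pool for NR3C1 and HSPB1, NR3C1 (0.90, adjusted p = 0.023) and HSPB1 (1.22, adjusted p = 0.018) were called for T3 vs T1, and both were also called for T2 vs T1 (0.88, adjusted p = 0.047, and 1.08, adjusted p = 0.0499). Without T1 pool 11, the lowest T1 pool, the T3 vs T1 differences were 0.37 for NR3C1 (adjusted p = 0.18), 0.35 for HSPB1 (adjusted p = 0.51), 0.19 for HSP90AA1 (adjusted p = 0.60) and -0.30 for HSD11B1 (adjusted p = 0.39), and those of T2 vs T1 were 0.35 for NR3C1 (adjusted p = 0.25) and 0.21 for HSPB1 (adjusted p = 0.78).

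T1 pool 11 of ileum day 8 also stood apart in other genes, and 59.05% of its spots were well above background against 67.96 to 72.58% in the other T1 pools. Its summed log2 level of 4 B and plasma cell markers was 12.93 against 13.89 to 14.51 in the other T1 pools, that of 7 smooth muscle markers 13.68 against 14.52 to 15.11, and that of 8 epithelial markers 18.93 against 19.09 to 19.28. In contrast, 3 markers of enteric neurons and glia, at 9.56 against 8.19 to 9.48, and the erythroid marker HBE1, at 4.79 against 3.24 to 4.72, were higher. The part of these in the differences of NR3C1 and HSPB1 was not tested.

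Among the chaperones, HSP90AA1 in jejunum of day 55 had 15.33, 15.88, 15.63 and 15.26 in T3 pools and 14.67, 15.30, 15.12 and 14.72 in T1 pools. Only the highest T1 pool reached into the T3 range. The difference was 0.57 (SE 0.21, adjusted p = 0.079), with 6 of 6 probes higher in T3, by 0.05 to 1.61. It was called with the normexp background correction (0.60, adjusted p = 0.046). HSPB1 in jejunum of day 176 had 14.53, 14.36, 14.38 and 14.62 in T3 pools and 13.23, 13.90, 14.13 and 13.69 in T1 pools. These groups did not overlap, but the difference of 0.74 (SE 0.27) had an adjusted p of 0.60 in limma. Both comparisons lay between slides.

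The probes of NR3C1 did not move together in jejunum of day 55. For T3 vs T1 the mean difference was 0.33 (SE 0.14, adjusted p = 0.14), while single probes differed by -0.61, 1.07 and 0.54. The pools did not overlap, with 9.93, 9.71, 9.68 and 9.69 in T3 and 9.10, 9.52, 9.58 and 9.49 in T1. The brightest probe was lower in T3 (adjusted p = 0.023), against the direction of the mean. For HSD11B1 in the same comparison, 5 probes ranged from -1.30 to 1.74, and the sixth was left out because it had no usable spot on 1 array of day 55. A treatment difference of either gene in jejunum of day 55 therefore depends on the probe.

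In blood, HSD11B1, which reactivates cortisol, had the widest spread. T3 pools had log2 intensities of 5.98, 6.72, 6.21 and 8.09, T2 pools of 7.39, 7.22, 6.90 and 7.06, and T1 pools of 7.46, 7.41, 7.10 and 6.96. Of the T3 pools, 3 of 4 lay below all T1 and T2 pools and pool 4 lay above them all. The difference was -0.39 (SE 0.38, adjusted p = 1.00) for T3 vs T2 and -0.48 (SE 0.38, adjusted p = 0.87) for T3 vs T1. Of the 5 probes measurable in blood, 5 were lower in T3, by -0.50 to -0.26 against T2 and by -0.69 to -0.39 against T1. With the probe at background left out, the differences were -0.37 (SE 0.44, adjusted p = 1.00) and -0.53 (SE 0.44, adjusted p = 0.88). T3 and T2 shared a slide in blood. The tests of HSD11B2 in blood are counted among the 35 of each comparison but are not described, since its probe was well above background on 1 of 12 arrays.

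With 1 treatment effect fitted for both tissues of a day, 0 of 30 tests of members were called at days 8 and 176, where 7 had an unadjusted p below 0.05. All genes were called at 0.0744, 0.0177 and 0.567% for T3 vs T2, T3 vs T1 and T2 vs T1 at day 8, and at 0, 0 and 0.00354% at day 176. The treatment effect did not pass the test of a difference between jejunum and ileum for any member, with 0 of 45 tests called in limma and 1 with an unadjusted p below 0.05. The shares of all genes in these tests were 0.00708, 0.0354 and 0.00708% at day 8, 0.513, 5.96 and 0.263% at day 55, and 0.230, 0 and 0.726% at day 176, in the order T3 vs T2, T3 vs T1 and T2 vs T1.

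All 5 members changed between ages in at least 1 tissue. Between ages within a tissue, 13 of 30 tests were called in limma, on 67 intestinal arrays normalized together. Of all genes, 37.1, 49.0 and 36.9% were called in jejunum for day 55 vs 8, day 176 vs 8 and day 176 vs 55, and 47.3, 48.6 and 28.3% in ileum, so the members' share was near that of all genes. No slide held intestinal arrays of more than 1 day, so that age and slide cannot be told apart. A fit of tissue and day means with slide as a random effect allows for spread between slides of a day. It does not allow for a difference shared by all slides of a day, and it leaves treatment out.

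**Figure D2:**
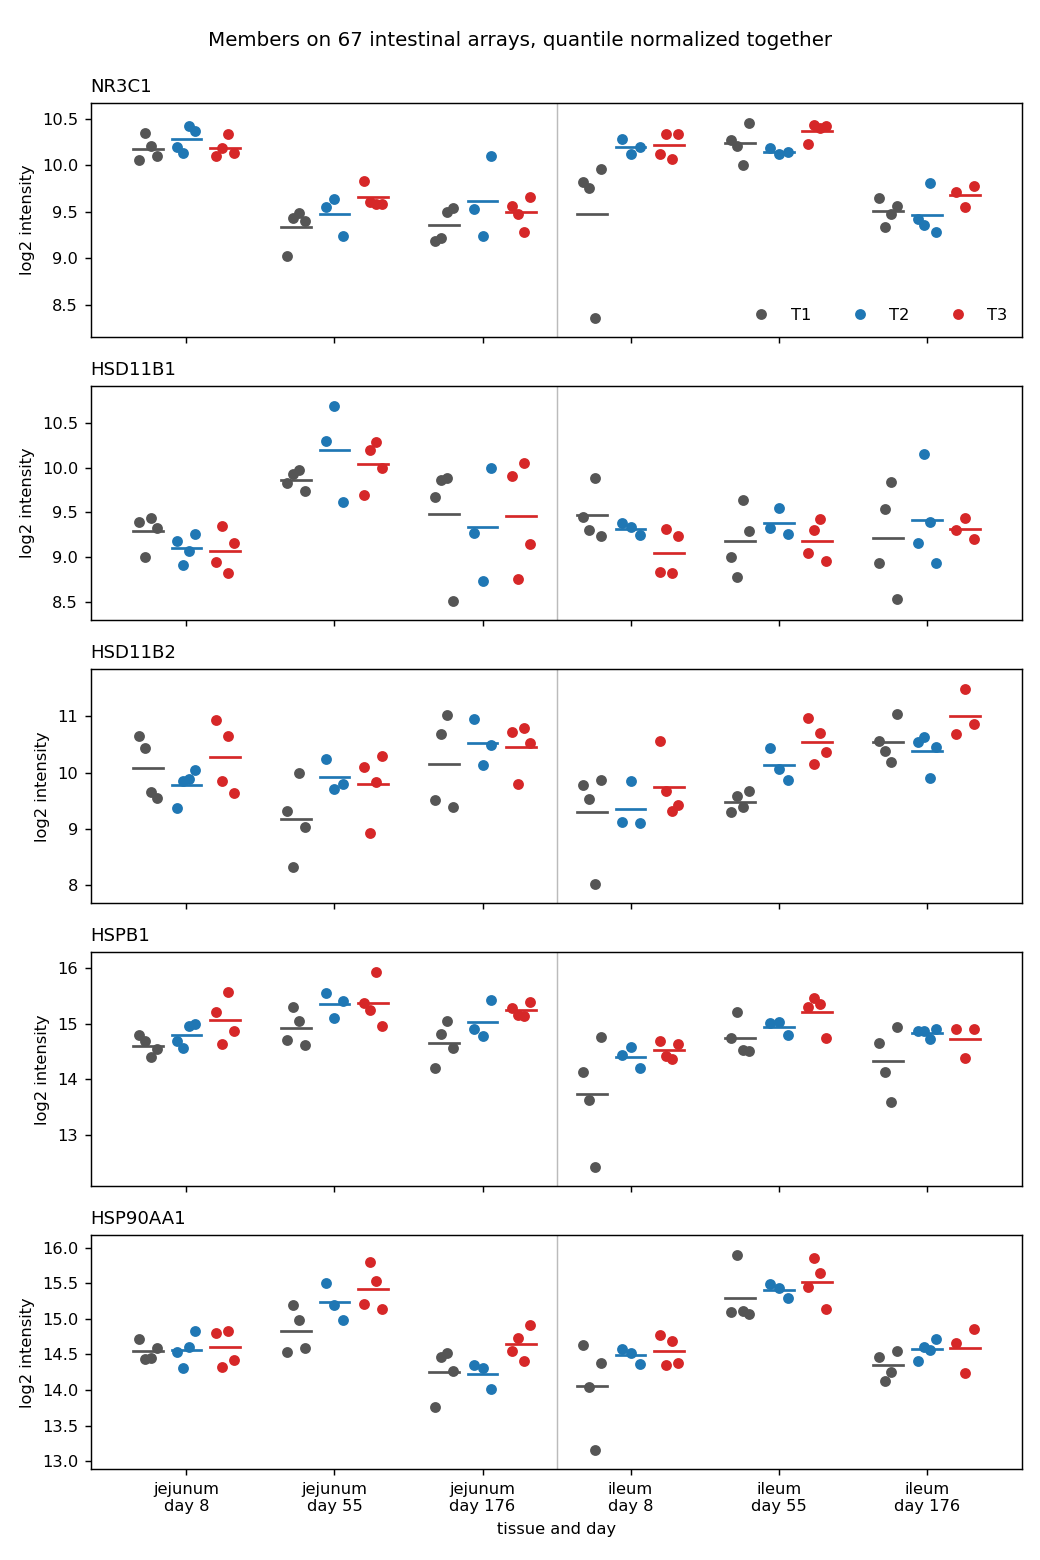
Log2 intensity of each gene on the 67 intestinal arrays, with a point per pool, coloured by treatment, and a line at each group's mean, by tissue and day. HSP90AA1 lies highest at day 55 in both tissues, NR3C1 lies at 9.02 to 9.83 in jejunum of day 55 against 10.01 to 10.46 in ileum, and 1 T1 pool of ileum day 8 lies low for 4 of the 5 genes.

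HSP90AA1 peaked at day 55. Its lowest, median and highest log2 intensities in ileum were 13.16, 14.38 and 14.77 at day 8, 15.06, 15.43 and 15.90 at day 55, and 14.12, 14.54 and 14.86 at day 176. Day 55 did not overlap the other days in ileum. The level rose by 1.04 (SE 0.13, adjusted p = 1.4e-09) from day 8 to 55 and fell by 0.90 (SE 0.13, adjusted p = 2.7e-07) from day 55 to 176. In jejunum it rose by 0.58 (SE 0.13, adjusted p = 1.4e-04), just under the 1.5-fold limit but called without jejunum T2 pool 8 (0.61) or ileum T1 pool 11 (0.59) of day 8, and then fell by 0.78 (SE 0.13, adjusted p = 2.5e-06). From day 8 to 55, 6 of 6 probes were higher in both tissues, by 0.81 to 1.38 in ileum and by 0.03 to 0.91 in jejunum. From day 55 to 176, 6 of 6 were lower in both tissues, but the brightest probe alone was not called, with -0.24 (adjusted p = 0.24) in ileum and -0.36 (adjusted p = 0.064) in jejunum.

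The order of the HSP90AA1 means was ileum day 55 (15.40 ± 0.30, SD), jejunum day 55 (15.15 ± 0.38), jejunum day 8 (14.57 ± 0.19), ileum day 176 (14.49 ± 0.22), jejunum day 176 (14.39 ± 0.31) and ileum day 8 (14.35 ± 0.44), with n = 11 or 12. Only the step from jejunum day 55 to jejunum day 8 exceeded the SDs of both neighbours. With each array scaled to its 75th percentile in place of quantile normalization, the fall in ileum was 0.53 and no longer passed the 1.5-fold limit, while the rises were 0.81 in ileum and 1.06 in jejunum, both called.

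NR3C1 fell after day 8 in jejunum. The lowest, median and highest values in jejunum were 10.05, 10.19 and 10.43 at day 8, 9.02, 9.55 and 9.83 at day 55, and 9.19, 9.50 and 10.10 at day 176. Days 8 and 55 did not overlap. The mean over probes fell by 0.73 (SE 0.11, adjusted p = 3.2e-07) from day 8 to 55 and by 0.72 (SE 0.11, adjusted p = 2.2e-07) from day 8 to 176. In ileum it fell only later, by 0.70 (SE 0.12, adjusted p = 2.8e-06) from day 55 to 176, with 3 of 3 probes lower.

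The fall of NR3C1 in jejunum rested on part of its probes. Between days 8 and 55 the probes differed by 0.05 (A_72_P035891, the brightest), -1.50 (A_72_P444091) and -0.72 (A_72_P464460). Between days 8 and 176 they differed by -0.05, -1.97 and -0.15 in the same order. By its brightest probe alone, NR3C1 in jejunum was therefore not lower at day 55 than at day 8. In ileum the brightest probe rose by 0.77 from day 8 to 55, while the mean over probes rose by 0.29 (SE 0.12, adjusted p = 0.030) and did not reach the 1.5-fold limit. The order of the means was ileum day 55 (10.26 ± 0.15, SD), jejunum day 8 (10.22 ± 0.12), ileum day 8 (9.94 ± 0.56), ileum day 176 (9.54 ± 0.18), jejunum day 55 (9.49 ± 0.22) and jejunum day 176 (9.48 ± 0.26), and no step between neighbours exceeded the SDs of both. The sequences of the probes were not used here, so where on the transcript each binds is not given, and whether HSP90AA1 probes also bind transcripts of HSP90AB1 was not examined.

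**Figure D3:**
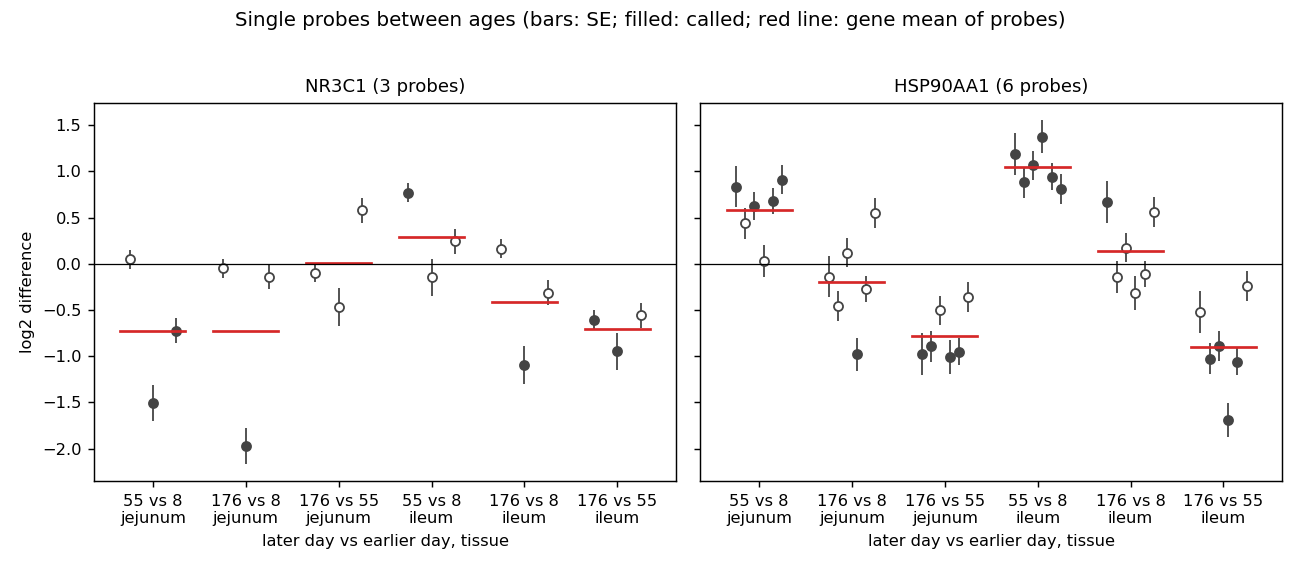
Log2 differences between ages for each probe of NR3C1 (3 probes) and HSP90AA1 (6 probes), with bars for the SE, filled points where the probe was called and a red line at the mean over probes. The 6 HSP90AA1 probes move the same way from day 8 to 55 and from day 55 to 176, whereas the NR3C1 probes span -1.50 to 0.05 in jejunum between days 8 and 55.

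The 2 cortisol enzymes followed different courses. HSD11B2 rose with age in ileum, where its lowest, median and highest values were 8.02, 9.53 and 10.56 at day 8, 9.30, 10.07 and 10.97 at day 55, and 9.90, 10.56 and 11.49 at day 176. The ranges overlapped between all 3 days. From day 8 to 176 it rose by 1.18 (SE 0.22, adjusted p = 9.0e-06). The earlier step, from day 8 to 55 (0.59, adjusted p = 0.022), and the later one, from day 55 to 176 (0.59, adjusted p = 0.030), were also called, both with an SE of 0.22, but not with slide as a random effect (0.59, adjusted p = 0.096, and 0.51, adjusted p = 0.20). The earlier step was also under the 1.5-fold limit with 75th percentile scaling (0.57) and with the normexp correction (0.47), and was not called without ileum T1 pool 11 of day 8 (0.44, adjusted p = 0.067). Within single treatments the earlier step was 0.18 (adjusted p = 0.74) in T1, 0.77 (adjusted p = 0.17) in T2 and 0.81 (adjusted p = 0.068) in T3. The later step was 0.26 (adjusted p = 0.77) in T2 and 0.46 (adjusted p = 0.44) in T3, neither called. The T1 means in ileum were 9.48 at day 55 and 10.54 at day 176. In jejunum HSD11B2 rose by 0.76 (SE 0.22, adjusted p = 0.0042) from day 55 to 176, after a difference of -0.42 (SE 0.22, adjusted p = 0.11) from day 8 to 55. This rise was not called within T2 (0.61, adjusted p = 0.28) or T3 (0.67, adjusted p = 0.17). The difference from day 8 to 55 was called within T1 (-0.91, adjusted p = 0.049). Its means ran from ileum day 176 (10.61 ± 0.42) over jejunum day 176 (10.36 ± 0.57), ileum day 55 (10.05 ± 0.54), jejunum day 8 (10.04 ± 0.51) and jejunum day 55 (9.59 ± 0.62) to ileum day 8 (9.48 ± 0.63), and no neighbours differed by more than their SDs.

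HSD11B1 was highest in jejunum of day 55. Its lowest, median and highest values in jejunum were 8.83, 9.17 and 9.44 at day 8, 9.61, 9.98 and 10.69 at day 55, and 8.51, 9.68 and 10.05 at day 176. Days 8 and 55 did not overlap. It rose by 0.88 (SE 0.16, adjusted p = 1.2e-05) from day 8 to 55, with 5 of 5 probes higher and 4 of them called, and fell by 0.61 (SE 0.17, adjusted p = 0.0024) from day 55 to 176. The later fall came under the 1.5-fold limit with the normexp correction (-0.48), with the brightest of the 5 probes kept (-0.43), with slide as a random effect (-0.57) and without T3 pool 4 of day 176 (-0.58). It was not called in limma within T1 (-0.39, adjusted p = 0.35) or T3 (-0.58, adjusted p = 0.11). Within T1 the earlier rise of HSD11B1 was not called either (0.58, adjusted p = 0.105). In ileum its means were 9.28 ± 0.29, 9.24 ± 0.26 and 9.31 ± 0.45 (SD, n = 11) at days 8, 55 and 176, which is less apart than their SDs. The means of jejunum were 10.02 ± 0.32 at day 55, 9.44 ± 0.57 at day 176 and 9.16 ± 0.20 (n = 12) at day 8, so that jejunum day 55 stood first and jejunum day 8 last of the 6 groups. The step from jejunum day 55 to jejunum day 176, the next in order, was the one that exceeded the SDs of both neighbours.

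HSPB1 rose by 0.74 (SE 0.17, adjusted p = 1.6e-04) in ileum from day 8 to 55. Its lowest, median and highest values there were 12.43, 14.42 and 14.77 at day 8 and 14.52, 15.02 and 15.47 at day 55, with overlapping ranges. In jejunum the same step was 0.39 (SE 0.16, adjusted p = 0.044) and stayed under the 1.5-fold limit. With 75th percentile scaling the opposite held, with 0.53 in ileum, not called, and 0.89 in jejunum, called. Only 1 of its 2 probes had a value on all arrays of this fit. The order of its means was jejunum day 55 (15.21 ± 0.38), jejunum day 176 (14.97 ± 0.37), ileum day 55 (14.97 ± 0.33), jejunum day 8 (14.83 ± 0.32), ileum day 176 (14.63 ± 0.42) and ileum day 8 (14.21 ± 0.67). No neighbours in this order differed by more than their SDs.

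Scaling of the arrays mattered for these age differences, as 75th percentile scaling moved the median of all genes by -0.134 to 0.480 relative to quantile normalization. Relative to the median of all genes, HSP90AA1 rose from day 8 to 55 by 0.93 in ileum and 0.55 in jejunum after quantile normalization, and by 0.36 and 1.13 after 75th percentile scaling. NR3C1 in jejunum differed by -0.76 and -0.63 on the same basis. Markers of other cell types also moved with age. The summed log2 level of 8 T cell markers was 10.12 to 11.13 in ileum at day 8 and 12.79 to 13.66 at day 55, and that of 7 smooth muscle markers was 13.62 to 15.03 and 12.88 to 13.56. In jejunum the T cell markers were 10.13 to 11.46 at day 8 and 12.08 to 13.28 at day 55, and smooth muscle markers were 14.42 to 15.42 and 12.86 to 13.62. Their part in the members' differences was not tested.

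Jejunum and ileum differed for 3 of 15 tests of members, against 2.50, 39.8 and 28.8% of all genes called at days 8, 55 and 176. At day 55, NR3C1 was lower in jejunum than in ileum, by 0.76 on the log2 scale (difference -0.76, SE 0.12, adjusted p = 2.0e-07). The tissues did not overlap, and 3 of 3 probes were lower and called, by -0.89 to -0.67. HSD11B1 was higher in jejunum at day 55, by 0.79 (SE 0.17, adjusted p = 9.7e-05), with 5 of 5 probes higher. This difference was not called in limma within T1 alone (0.69, adjusted p = 0.051) or T2 alone (0.82, adjusted p = 0.064). Jejunum and ileum arrays of day 55 lay on different slides.

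At day 8, HSPB1 was higher in jejunum, by 0.60 (SE 0.16, adjusted p = 0.029). This call was lost with 75th percentile scaling (0.50), with the normexp correction (0.56), without jejunum T2 pool 8 (0.58, under the 1.5-fold limit), without ileum T1 pool 11 (0.45, adjusted p = 0.083) and with slide as a random effect (0.49, adjusted p = 0.73). At day 176, 0 of 5 genes were called in limma, where 1 had an unadjusted p below 0.05.

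Blood differed from both intestinal sites. At day 8, on 35 arrays normalized together, 4 of 5 members were called for blood vs jejunum and 2 of 5 for blood vs ileum, against 75.6 and 74.0% of all genes. HSD11B2, the inactivating enzyme, had log2 intensities of 4.50 to 6.42 in blood, 8.00 to 9.54 in jejunum and 6.70 to 9.17 in ileum. The blood values did not overlap either tissue, with a difference of -3.19 from jejunum (SE 0.24, adjusted p = 4.1e-13) and of -2.63 from ileum (SE 0.25, adjusted p = 6.6e-11). Since 1 of 12 blood arrays was well above background for this probe, its level in blood is mostly an upper limit. Blood and intestine of day 8 lay on different slides, so that tissue and slide cannot be told apart.

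HSD11B1 had the reverse order. It was 9.52 ± 0.64 in blood (SD, n = 12), 8.22 ± 0.22 in jejunum (n = 12) and 8.37 ± 0.30 in ileum (n = 11), higher in blood by 1.30 (SE 0.17, adjusted p = 5.7e-08) and 1.15 (SE 0.17, adjusted p = 8.7e-07). Of its 6 probes, 5 were higher in blood, by 1.46 to 3.28, and the sixth was not well above background on any blood array. Without that probe the level was 10.81 ± 0.61 in blood, 8.78 ± 0.25 in jejunum and 8.96 ± 0.38 in ileum, higher in blood by 2.03 (SE 0.18, adjusted p = 1.4e-11) than in jejunum and by 1.85 (SE 0.18, adjusted p = 2.1e-10) than in ileum. With 75th percentile scaling the median of all genes was itself higher in blood. Relative to it, HSD11B1 differed by 0.25 from jejunum and by -0.06 from ileum over the 6 probes, and by 0.80 and 0.43 over the 5 measurable ones.

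HSPB1 was lower in blood than in jejunum, with a difference of -1.14 (SE 0.20, adjusted p = 7.0e-06) and 2 of 2 probes lower. HSP90AA1 differed by -0.61 (SE 0.14, adjusted p = 2.4e-04) from jejunum with quantile normalization, but by -0.02 with 75th percentile scaling, where it was not called. NR3C1 was 8.96 ± 0.27 in blood, 8.83 ± 0.12 in jejunum and 8.57 ± 0.55 in ileum, and was not called against either.

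**Figure D4:**
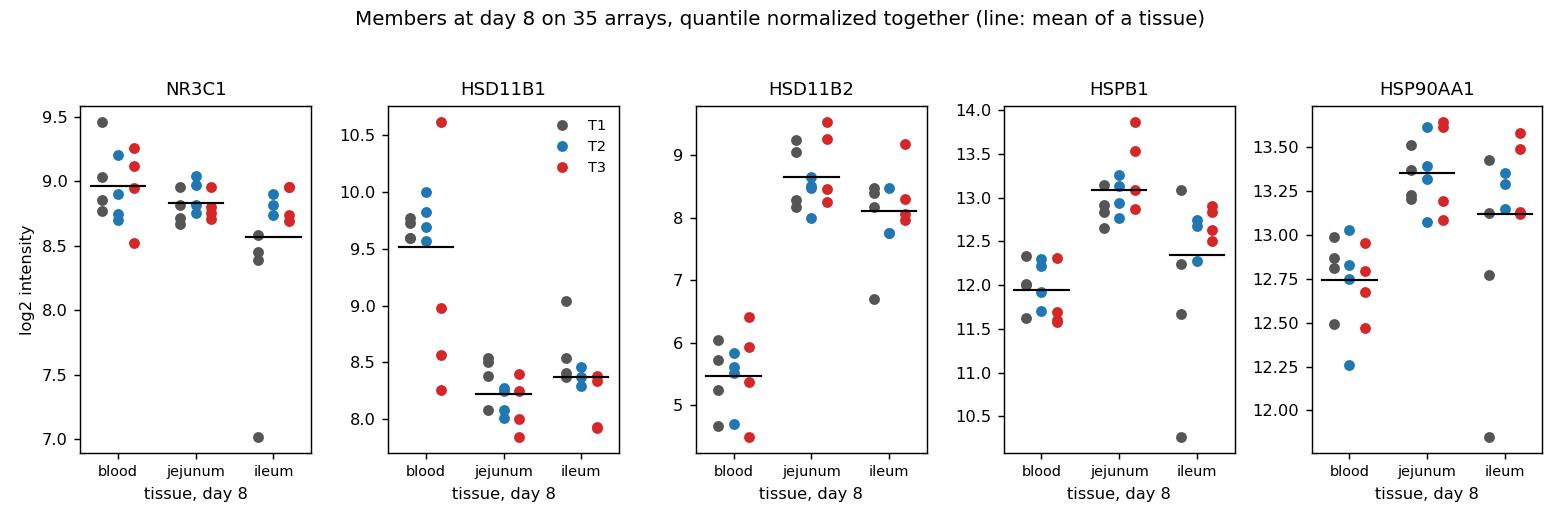
Log2 intensity of the 5 genes at day 8 on 35 arrays, with a point per pool, coloured by treatment, and a line at each tissue's mean. HSD11B2 in blood (4.50 to 6.42) lies below both intestinal sites, and HSD11B1 in blood reaches from 8.25 to 10.62, with 3 T3 pools below the other blood pools.

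Further genes of the pathways were described from 4 lists, with values only for those called. Of the chaperone list, 14 of 66 genes were on the array, and those called between treatments at day 55 were FKBP4 and CDC37. FKBP4 is an immunophilin of the receptor's HSP90 complex, and CDC37 is the HSP90 partner for kinases. For T3 vs T1 in jejunum FKBP4 rose by 1.39 (SE 0.24, adjusted p = 6.1e-04) and CDC37 by 1.36 (SE 0.25, adjusted p = 0.0011). In ileum they rose by 0.88 (adjusted p = 0.016) and 0.97 (adjusted p = 0.011). T2 vs T1 in jejunum, which shared a slide, gave 1.09 (adjusted p = 0.021) and 1.16 (adjusted p = 0.018). These were 2 of 14 chaperone genes for T3 vs T1 in each tissue, against 12.2% of all genes in jejunum and 14.8% in ileum. For T3 vs T2, 0 of 14 chaperone genes were called at any site.

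Of 13 genes of the glucocorticoid axis on the array, CRH, STAR and FKBP4 were called in ileum of day 55, 3 of 13 for T3 vs T1 against 14.8% of all genes. FKBP4 is in the chaperone list as well and was counted there too. CRH, the hypothalamic releasing hormone, was higher in T3 than in T1, by 1.82 (adjusted p = 8.3e-04), and than in T2, by 1.59 (adjusted p = 0.0057). STAR, which carries cholesterol into mitochondria for steroid synthesis, was lower in T3, with differences of -0.72 (adjusted p = 0.039) and -0.85 (adjusted p = 0.039). Both comparisons lay between slides.

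Of 15 glucocorticoid-induced genes on the array, 3 of 14 tested rose for T3 vs T1 in jejunum of day 55 and 0 fell, against 12.2% of all genes called in either direction. They were ANGPTL4, an inhibitor of lipoprotein lipase (2.03, adjusted p = 9.0e-05), the transcription factor CEBPB (1.23, adjusted p = 0.012) and GLUL, glutamine synthetase (1.13, adjusted p = 4.5e-04). The median of the list was 0.30 against -0.05 for all genes. CEBPB was lower in T3 than in T2 in ileum (-1.17, adjusted p = 0.034). ANGPTL4 was also higher in T2 than in T1 in jejunum (1.51, adjusted p = 0.0076).

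Of 17 genes of endoplasmic reticulum and oxidative stress, 3 rose for T3 vs T1 in each tissue at day 55, against 14.8% of all genes called in ileum and 12.2% in jejunum. These were GPX2 (1.33), NQO1 (0.73) and GPX3 (0.69) in ileum, which detoxify peroxides and quinones, and XBP1 (1.04), GPX3 (0.74) and ATF4 (0.73) in jejunum, of which XBP1 and ATF4 are transcription factors of the unfolded protein response. No gene of the 4 lists was called in a treatment comparison at day 8 or 176 or in blood.

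Between ages, the chaperone list moved in both directions. From day 8 to 55, 6 of 14 rose and 3 fell in each tissue, with medians of 0.51 in jejunum and 0.16 in ileum against 0.03 and 0.11 for all genes. Of all genes tested, 5587 rose and 5831 fell in jejunum (37.1% called), and 7514 rose and 7076 fell in ileum (47.3% called). HSPA6, an inducible HSP70, rose by 3.80 (adjusted p = 1.8e-06) in jejunum and 1.93 (adjusted p = 0.011) in ileum. HSPH1, an HSP110 that recharges HSP70, rose by 1.85 and 1.75. HSPE1, the partner of mitochondrial HSPD1, rose by 1.23 and 1.43. HSPBAP1, which binds HSPB1, had differences of -1.47 and -1.43, and HSBP1, which binds the heat shock factor, of -1.36 in jejunum, and fell in ileum as well.

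From day 55 to 176, 9 of 14 chaperone genes fell and 1 rose in jejunum (median -0.96, all genes 0.0079), while 1 fell and 1 rose in ileum (median -0.38, all genes -0.014). Of all genes tested, 5199 fell and 6186 rose in jejunum (36.9% called), and 3980 fell and 4734 rose in ileum (28.3% called). HSPA6 fell by 3.18 in jejunum. PTGES3, the p23 partner of HSP90, rose by 1.16 in jejunum and 1.49 in ileum.

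Of the glucocorticoid-induced genes, 7 of 15 fell and 1 rose in jejunum from day 8 to 55 (median -0.48, all genes 0.03), and 10 fell and 2 rose in ileum (median -0.95, all genes 0.11). Of the 30816 genes tested, 5831 fell and 5587 rose in jejunum and 7076 fell and 7514 rose in ileum. SCNN1A, a sodium channel subunit, had differences of -2.87 and -2.21. From day 55 to 176, 4 fell and 5 rose in jejunum and 2 fell and 5 rose in ileum, against 5199 and 6186 of all genes in jejunum and 3980 and 4734 in ileum. Among those that rose was PDK4, which spares glucose (1.69 and 2.52). Of the list of endoplasmic reticulum and oxidative stress, GPX3 had differences of -6.71 in jejunum and -6.87 in ileum from day 8 to 55. HMOX1, which degrades haem, had differences of -2.93 and -3.32. The list did not move in 1 direction over this step. NQO1 (1.96) and TXNRD1 (0.75) rose in jejunum and ATF4 (0.81) rose in ileum, all called.

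Over the 18 intestinal group means, the genes most like each member were found among 2227 genes with a symbol. The profile of NR3C1 was most like SRSF4 (Pearson r = 0.90) and MAP3K7 (0.87), that of HSD11B1 like IL15 (0.91) and MAP2K1 (0.88), that of HSD11B2 like TMEM173 (0.90) and HNRNPA1 (0.84), that of HSPB1 like VIPR1 (0.84) and NRM (0.83), and that of HSP90AA1 like AURKA (0.91) and LOC733579 (0.90). Among members, HSPB1 and HSP90AA1 had an r of 0.66, and NR3C1 and HSD11B1 of -0.62. These 18 means share slides and a common normalization, and the values are given as a description.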

How the data were processed

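Total RNA of whole blood, jejunum and ileum was hybridised by the authors to 1-colour Agilent pig arrays with Cy3 label, 1 pool per array, and scanned with Feature Extraction (10.7.3.1 per the file headers). The deposited values used were processed signal intensity per spot, with background already subtracted by that software. Scanner files were used and the series value table was not. The number of pools limits the precision. Signals were floored at 1 and taken to log2, control and outlier spots were removed, spots of a probe averaged, arrays of a fit quantile normalized, probes kept that reached the 20th percentile on all arrays of at least 1 group, and probes of a gene averaged. Probes lacking a value on an array of a fit were left out. Names came from RefSeq through the probes' accessions.

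Group means were fitted with limma (3.58.1, R 4.3.3), and p-values were adjusted by Benjamini-Hochberg over all genes of a fit. A gene was called at an adjusted p below 0.05 with a fold change above 1.5. Intestine was fitted by day for treatments, jointly over days for age and tissue, and blood alone or with intestine of day 8. The script was tested on simulated data. Alternatives were 75th percentile scaling, normexp correction (offset 50, on median signals, as mean signals were not used here), the brightest probe, other filters, single treatments, joint fits, a 2-way analysis of variance, slide and replicate blocks, and each array left out.

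Members and lists were chosen with earlier results of these data known. Genes named were the members and list genes that were called, and those most like each member, except for an item that is not reported here. Jejunum and ileum of a pool came from the same animals, and their deviations correlated with a mean r of 0.176 at day 8, 0.074 at day 55 and 0.050 at day 176. Values were not analysed here for 1 pool of T2 each in ileum of days 8 and 55 and in jejunum of days 55 and 176, and for 1 pool of T3 in ileum of day 176. At day 8 the authors left out 1 jejunum and 1 ileum sample after quality control, without naming them. All 12 jejunum arrays of day 8 were kept here. Probe sequences and a genome build are not given in the sources used here, so no coordinates are printed.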

Additional observations from a re-analysis of the deposited data

Results flagged for a closer look

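In 7 of 80 groups of 4 pools, 1 pool lay further from the others than Dixon's 95% limit allows, which chance gives in about 1 in 20 groups. The values are log2 intensities of the fit of each day. For NR3C1 they were ileum day 8 T1 pool 11 at 8.40 (others 9.81 to 10.00), jejunum day 55 T1 pool 9 at 9.10 (others 9.49 to 9.58), jejunum day 55 T3 pool 1 at 9.93 (others 9.68 to 9.71) and ileum day 55 T3 pool 1 at 10.33 (others 10.51 to 10.54). HSD11B1 in jejunum day 176 T1 pool 12 was 9.13 (others 10.10 to 10.22). HSP90AA1 in ileum day 55 T1 pool 10 was 15.97 (others 15.19 to 15.24). HSPB1 in blood T3 pool 4 was 9.81 (others 8.95 to 9.09).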

How the results depend on the processing

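The number of members called for T3 vs T2 was 0 under all alternatives run. For T3 vs T1 it was 1, and became 0 with all 79 arrays fitted together (HSD11B2 in ileum of day 55 at 1.06, adjusted p = 0.079), 2 with the brightest probe of each gene, 2 with the normexp correction and 2 by an analysis of variance over tissue and treatment. Its treatment term, which covers both tissues at once, also gave 2 for T2 vs T1, where limma gave 0. Leaving out each of the 79 arrays in turn gave 0 to 3 calls for T3 vs T1, 0 to 2 for T2 vs T1 and 0 to 0 for T3 vs T2. Between ages and between jejunum and ileum only the 5 arrays that stood apart were left out, which gave 12 to 14 and 2 to 3 calls, and other arrays were not tried. Within T2 alone, 1 of 15 tests between jejunum and ileum was called, against 3 in all. The sign turned for NR3C1 by its brightest probe, to -0.61 (adjusted p = 0.023) for T3 vs T1 in jejunum of day 55 and to 0.0474 (adjusted p = 0.73) for day 55 vs 8 in jejunum. With the replicate block of sow sets, 1 call remained for T3 vs T1 and 0 for T3 vs T2 and T2 vs T1, and with the pairing of jejunum and ileum of a pool there were 3 calls between tissues, so that the block changed no call. With slide as a random effect, chosen after seeing the data, HSD11B1 in jejunum for day 176 vs 55 was -0.57 and under the 1.5-fold limit, and HSP90AA1 in jejunum for day 55 vs 8 was 0.62 and called. Without the HSD11B1 probe at background in blood, also chosen after seeing the data, 0 calls changed in blood after quantile normalization. The cause was not tested for any of these. In blood, 34.79 to 44.09% of spots were well above background, which limits HSD11B2 there.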
